A study of Mus musculus with 110 samples.

Results

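Interferon-stimulated genes were followed as a set of 35 genes out of 56884 gene rows in RNA sequencing count tables of mouse liver, interscapular brown (iBAT), inguinal white (iWAT) and epididymal white (eWAT) adipose tissue. The genes were chosen by name, as genes known to be induced by interferon, with no measured value in the rule: Stat2, Irf9, Irf7, Isg15, Usp18, Ifit1, Ifit2, Ifit3, Ifit3b, Oas1a, Oas1g, Oas2, Oas3, Oasl1, Oasl2, Mx1, Mx2, Rsad2, Cmpk2, Ifih1, Dhx58, Zbp1, Bst2, Trim30a, Xaf1, Ifi44, Ifi35, Ifi27, Gbp2, Gbp3, Gbp4, Gbp7, Parp9, Parp14 and Dtx3l. All 35 passed the filter on low counts in each of the 4 tissues.

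The study asked how dietary sulfur amino acid restriction and cold act on each tissue, alone and together. Male wild-type C57BL/6N mice ate a cysteine-free diet with 0.86% methionine (Ctrl, the control diet by the sample labels) or 0.12% methionine (MetR) for 7 days at 22 °C (room temperature, RT), and the cold-exposed groups then spent 24 h at 4 °C (CE). The mice were 16 weeks old at the end, and 7 mice in each of 4 groups (Ctrl_RT, Ctrl_CE, MetR_RT and MetR_CE) gave 110 libraries of whole tissue, of which 105 entered the comparisons. The control group was therefore without dietary cysteine as well, and all cold exposure was acute.

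The liver libraries held between 6987895 and 33444374 counts, and those of the adipose tissues between 12672686 and 33372110. The kept groups held 7 mice each, apart from 6 in iBAT Ctrl_RT, iBAT Ctrl_CE, iWAT MetR_CE and eWAT MetR_RT and 4 in eWAT Ctrl_RT. Markers of the labelled tissues were high in each: summed hepatocyte markers reached 40700 to 81200 CPM (counts scaled to a common library total) in liver, brown adipocyte markers 8100 to 17200 CPM in iBAT, and adipocyte markers shared by white and brown fat 12900 to 29400 CPM in iWAT and eWAT (8470 to 13000 CPM in iBAT). Markers of neighbouring tissue were present too. Summed skeletal muscle markers had iWAT medians of 138, 175, 659 and 862 CPM in Ctrl_RT, Ctrl_CE, MetR_RT and MetR_CE, with single libraries up to 4900, 1100, 18900 and 4000 CPM, and reached 1500 CPM in iBAT. Epithelial markers, those of the epididymis among them, ran from 2.08 to 1360 CPM in eWAT. The part of such tissue in the results was not tested. Levels below are CPM normalised by the trimmed mean of M-values within a tissue. A gene is said to have risen or fallen where edgeR's quasi-likelihood test gave a Benjamini-Hochberg adjusted p under 0.05 over all genes of the tissue together with a change of at least 1.5-fold in either direction. Errors after ± on log2 values are standard errors.

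Interferons are secreted proteins that cells release when they sense foreign or misplaced nucleic acid. Type I interferons bind the receptor formed by Ifnar1 and Ifnar2, and the receptor's kinases then activate Stat2, which acts with Irf9 in the complex ISGF3. ISGF3 binds an interferon-stimulated response element in the promoters of these genes and raises their transcription, and Irf7 carries the response on by inducing more interferon. Even without infection a low tonic level of this programme is kept up, with macrophages and other immune cells of the tissue among its users.

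The letters of the response element were searched in the promoters. The choice by name did not use the letters themselves. It took genes known to be induced by interferon, so a share above that of all genes follows in part from the choice. In the RefSeq windows used here, which span 250 bases before to 50 bases after a gene's start (build GRCm38.p6), 25 of the 35 members had a window. A pair of GAAA half-sites with 2 unspecified bases between them (GAAA, NN, GAAA), searched on both strands, lay in the windows of 15 of those 25 members (60%) and of 3.99% of all 27025 genes with a window. Ifit3 and Ifit3b, and likewise Oas1a and Oas1g, count separately among the 15 though they are near-identical. The 25 matches were centred between 217 bases before and 37 bases after the start, with a median of 67 bases before it. The promoters printed next are those of Isg15, of Ifit1 and of the near-identical pairs Ifit3 with Ifit3b and Oas1a with Oas1g, written 5′ to 3′ on the gene's own strand, with matches to the spaced GAAA pair or its reverse complement in capitals. They are examples of windows with more than 1 match. The window of Bst2 and 1 window of Gbp3 held 2 matches each as well and are not printed.
Isg15, chr4:156200769-156201068, minus strand, 3 overlapping matches: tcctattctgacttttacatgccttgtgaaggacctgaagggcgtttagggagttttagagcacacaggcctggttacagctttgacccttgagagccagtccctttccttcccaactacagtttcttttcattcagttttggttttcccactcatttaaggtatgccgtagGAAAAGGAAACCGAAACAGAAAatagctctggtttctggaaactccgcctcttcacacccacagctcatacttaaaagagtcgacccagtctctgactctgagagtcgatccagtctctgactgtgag
Ifit1, chr19:34640639-34640938, plus strand, 2 matches: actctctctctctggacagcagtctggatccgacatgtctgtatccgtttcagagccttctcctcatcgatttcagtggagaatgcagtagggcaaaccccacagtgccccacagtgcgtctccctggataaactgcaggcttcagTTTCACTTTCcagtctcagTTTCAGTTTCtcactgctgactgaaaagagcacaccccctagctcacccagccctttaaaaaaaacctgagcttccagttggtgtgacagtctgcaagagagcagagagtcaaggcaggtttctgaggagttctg
Ifit3, chr19:34583279-34583578, plus strand, 2 matches: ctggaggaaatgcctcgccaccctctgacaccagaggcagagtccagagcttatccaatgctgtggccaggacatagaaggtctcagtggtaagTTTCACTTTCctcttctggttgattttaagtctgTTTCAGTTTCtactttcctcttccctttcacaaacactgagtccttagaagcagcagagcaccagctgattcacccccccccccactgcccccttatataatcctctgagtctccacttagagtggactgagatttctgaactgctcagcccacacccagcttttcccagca
Ifit3b, chr19:34607707-34608006, plus strand, 2 matches: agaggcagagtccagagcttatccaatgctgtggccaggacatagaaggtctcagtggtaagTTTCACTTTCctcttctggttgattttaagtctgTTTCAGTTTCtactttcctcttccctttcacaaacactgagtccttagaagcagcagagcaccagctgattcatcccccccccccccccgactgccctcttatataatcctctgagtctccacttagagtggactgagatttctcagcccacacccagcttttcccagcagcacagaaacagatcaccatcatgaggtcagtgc
Oas1a, chr5:120907476-120907775, minus strand, 2 overlapping matches: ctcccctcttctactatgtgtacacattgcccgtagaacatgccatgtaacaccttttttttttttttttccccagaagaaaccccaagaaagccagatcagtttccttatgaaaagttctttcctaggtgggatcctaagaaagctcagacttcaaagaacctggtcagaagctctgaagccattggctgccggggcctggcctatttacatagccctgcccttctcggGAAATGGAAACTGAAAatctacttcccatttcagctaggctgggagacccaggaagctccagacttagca
Oas1g, chr5:120887564-120887863, minus strand, 2 overlapping matches: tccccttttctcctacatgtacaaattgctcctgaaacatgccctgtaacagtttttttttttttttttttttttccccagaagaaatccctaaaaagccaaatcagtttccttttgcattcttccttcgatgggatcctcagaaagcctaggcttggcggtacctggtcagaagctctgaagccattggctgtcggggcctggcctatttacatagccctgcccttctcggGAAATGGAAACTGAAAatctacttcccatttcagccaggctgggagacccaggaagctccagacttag
The windows of Ifit2, Oasl1, Oasl2, Irf7, Irf9, Ifi44, Ifi35, Cmpk2, Xaf1 and Dtx3l held no match. The Irf7 window is an example.
Irf7, chr7:141266375-141266674, minus strand, no match: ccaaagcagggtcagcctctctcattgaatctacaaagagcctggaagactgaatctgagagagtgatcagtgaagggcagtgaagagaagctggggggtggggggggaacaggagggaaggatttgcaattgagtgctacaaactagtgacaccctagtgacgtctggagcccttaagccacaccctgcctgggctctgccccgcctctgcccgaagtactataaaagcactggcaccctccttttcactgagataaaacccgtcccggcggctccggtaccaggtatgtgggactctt
No window was given for Usp18, Oas2, Mx1, Mx2, Ifi27, Dhx58, Gbp4, Parp9, Parp14 and Zbp1.

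Several members are neighbours in the genome (GENCODE vM21 annotation, GRCm38). Ifit2, Ifit3, Ifit3b and Ifit1 lie within 99.3 kb of chromosome 19, Oas2, Oas3, Oas1g and Oas1a within 177 kb of chromosome 5, and Parp14, Dtx3l and Parp9 within 140 kb of chromosome 16. Ifit3 shares 51.2% of its 50-base stretches with other genes and Oas1a 57.6%, mostly with Ifit3b and Oas1g, so the counts within these pairs could not be fully separated. Parp9 shares 9.09% of its 50-base stretches with other genes, mainly Dtx3l, and Dtx3l shares 8.73%, mainly with Parp9 and Gm23638. Parp9 and Dtx3l overlap on opposite strands, and the library kit does not mark strand, so reads there cannot be told apart.

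In the Ctrl_RT group the genes stood at very different levels in the 4 tissues, and many of the antiviral effectors were highest in iWAT. On a scale common to all tissues, Oas2, an enzyme that makes the 2-5A signal for RNA decay, had median levels of 49.2 CPM in iWAT, 13.2 CPM in eWAT, 5.35 CPM in liver and 5 CPM in iBAT. For Oas2 the step from iWAT to eWAT (2.01 ± 0.31 on the log2 scale, adjusted p = 1.57e-07) was beyond the spread, and that between liver and iBAT was not (0.24 ± 0.28, adjusted p = 0.5). Between iWAT and eWAT, 30 of the 35 genes were higher in iWAT and none was lower, where 16% of all 32143 genes differed in either direction. From iBAT to iWAT 33 members were higher in iWAT and Ifi27 was higher in iBAT (33.3% of all genes differed). From liver to iWAT 22 were higher in iWAT and 4 in liver (45.8% of all genes). Without the Ctrl_RT mouse described below, 28 members were higher in iWAT than in eWAT and none was lower (4534 of all 31963 genes differed), 32 were higher and 1 lower than in iBAT (9875 genes), and 21 were higher and 8 lower than in liver (14169 genes).

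Zbp1, a sensor of Z-form nucleic acid, had median levels of 25.8 CPM in iWAT, 11.5 CPM in liver, 3.28 CPM in eWAT and 0.803 CPM in iBAT, and each step was called. Bst2 (tetherin), a membrane protein that holds budding virus at the cell surface, was instead highest in liver, at a median of 211 CPM against 70.7 CPM in iWAT (log2 difference 1.52 ± 0.14, adjusted p = 6.9e-17). Stat2, the transducer of the type I signal, followed the same order, with 132 CPM in liver, 61.3 CPM in iWAT, 33.7 CPM in eWAT and 24.7 CPM in iBAT, and its eWAT and iBAT levels differed by less than the fold limit. Ifi27, a small mitochondrial and nuclear membrane protein, was highest in brown fat: 1160 CPM in iBAT, 447 CPM in iWAT, 225 to 378 CPM in eWAT and 143 CPM in liver, the others as medians. Per kilobase of exon, Ifi27 had the highest Ctrl_RT level of all 35 members in the 3 adipose tissues, and Bst2 in liver. Between liver and the adipose tissues, another fit (limma, with the mouse as a block) moved the median of all genes on the log2 scale. That median went from between −0.28 and −0.08 to between 0.33 and 0.41. Other size factors in edgeR gave −0.051 against iBAT and −0.274 against iWAT. Liver differences within the margin between the edgeR and limma fits have no sure direction.

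**Figure D1:**
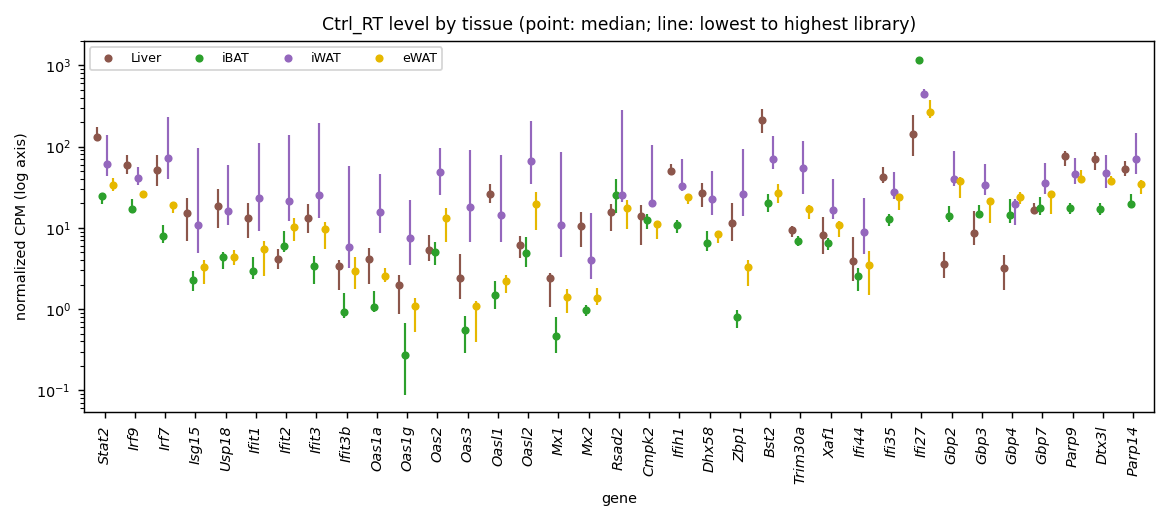
Level of the 35 interferon-stimulated genes (horizontal axis) in the Ctrl_RT libraries of each tissue (colours), in CPM on a logarithmic axis on the scale common to all tissues, with a point at the median and a line from the lowest to the highest library. Oas2 and Zbp1 are highest in iWAT (medians of 49.2 and 25.8 CPM), Bst2 and Stat2 in liver and Ifi27 in iBAT.

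The interferon-stimulated genes fell in iWAT under both stimuli. After 24 h of cold 29 of the 35 fell and none rose, where 9.94% of all genes tested fell and 5.99% rose. After 7 days of methionine restriction at room temperature 29 fell and Ifi27 rose, where 7.36% of all genes fell and 4.25% rose. After both, 31 fell and none rose, where 14.4% of all genes fell and 8.05% rose. The median log2 fold change over the 35 genes was −1.45 with cold, −1.35 with restriction and −1.88 with both, beside medians over all genes of −0.11, −0.03 and −0.08. The 3 comparisons share the Ctrl_RT libraries, so they are not independent of each other. In whole tissue, fewer cells of a type and less RNA per cell cannot be told apart.

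**Figure D2:**
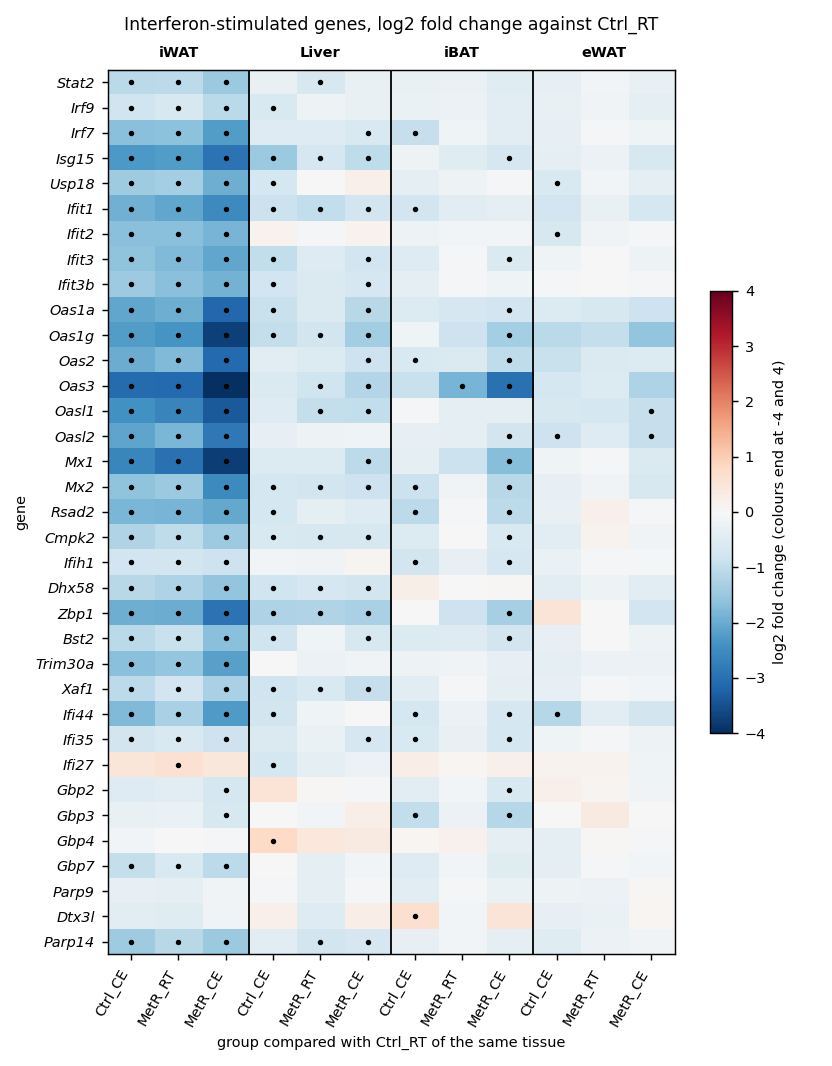
Log2 fold change against Ctrl_RT of each of the 35 genes (rows, ordered by role) for Ctrl_CE, MetR_RT and MetR_CE in the 4 tissues (columns), as colours that end at −4 and 4, with a dot where the gene rose or fell. The iWAT columns hold 29, 30 and 31 dots, and the eWAT columns 4, 0 and 2.

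The sizes of these differences leaned on 1 library. The iWAT library of Ctrl_RT replicate 7 had the highest level of its group for 34 of the 35 genes, the exception being Ifi27, and the 34 genes without Ifi27 summed to 3750 CPM there against a group median of 1250 CPM and a lowest value of 819 CPM. The same mouse was highest of Ctrl_RT for 21 members in liver, 19 in eWAT and 12 in iBAT. Without all libraries of that mouse, an alternative chosen after seeing the data, 24 members fell with cold (15% of all genes called in either direction), 21 fell and Ifi27 rose with restriction (11.1%) and 29 fell with both (21.9%), with median log2 fold changes of −0.83, −0.83 and −1.22.

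The transducers of the signal moved with their targets. Stat2 ran from 49.8 to 163 CPM with a median of 69.6 CPM in iWAT Ctrl_RT, from 28.4 to 58.8 CPM (median 38.5 CPM) in Ctrl_CE, from 28.8 to 53.6 CPM (median 38.4 CPM) in MetR_RT and from 27.3 to 32.4 CPM (median 29.4 CPM) in MetR_CE. Every MetR_CE library lay below every Ctrl_RT library, and the other 2 groups overlapped Ctrl_RT at its lower end. Its log2 fold change was −1.09 ± 0.20 with cold (adjusted p = 0.00014), −1.04 ± 0.20 with restriction (adjusted p = 0.000368) and −1.47 ± 0.21 with both (adjusted p = 3.64e-06). Irf9, its DNA-binding partner, fell by 0.78, 0.63 and 1.09 on the log2 scale. Irf7, the factor that amplifies the response, fell from a median of 81.7 CPM in Ctrl_RT (lowest 44.7 CPM) to 25.4 CPM, 33.2 CPM and 22.1 CPM, with log2 fold changes of −1.68 ± 0.30, −1.63 ± 0.30 and −2.23 ± 0.33. Without the replicate 7 mouse the Irf7 values were −1.23, −1.17 and −1.77.

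The ISG15 system, in which a ubiquitin-like protein is attached to other proteins and Usp18 takes it off again, followed. Isg15 ran from 5.78 to 111 CPM (median 12.3 CPM) in Ctrl_RT, from 1.94 to 10 CPM (median 4.95 CPM) in Ctrl_CE, from 4.41 to 7.05 CPM (median 5.6 CPM) in MetR_RT and from 2.42 to 5.1 CPM (median 3.34 CPM) in MetR_CE. Ctrl_RT replicate 7 stood at 111 CPM and the next highest library of its group at 22.9 CPM, and only the MetR_CE group lay wholly below Ctrl_RT. Its log2 fold changes of −2.28 ± 0.48, −2.23 ± 0.47 and −2.96 ± 0.52 became −1.23, −1.18 and −1.90 without that mouse. Usp18, which also blocks the receptor, fell by 1.43, 1.35 and 1.95 on the log2 scale.

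Genes of the IFIT family, whose proteins bind viral RNA ends and stop its translation, fell in all 3 comparisons. Ifit1 had medians of 26.7 CPM in Ctrl_RT, 9.14 CPM in Ctrl_CE, 10.5 CPM in MetR_RT and 5.61 CPM in MetR_CE, and its groups overlapped in every comparison. Its log2 fold change was −1.91 ± 0.43 (adjusted p = 0.00131), −2.08 ± 0.43 (adjusted p = 0.000946) and −2.54 ± 0.47 (adjusted p = 9.37e-05). Ifit3, with the near-identical Ifit3b, fell by 1.62, 1.75 and 2.06 and Ifit3b by 1.45, 1.67 and 1.88. The fall of Ifit3 leaned on the replicate 7 library at 226 CPM: without that mouse its log2 fold changes of −0.72 and −0.85 for cold and for restriction did not pass (adjusted p = 0.103 and 0.0645), and −1.16 for both together did.

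Among the OAS enzymes Oas3 had the most negative value of the 35 members in all 3 comparisons. Oas3, the largest enzyme of the family, ran from 7.52 to 105 CPM (median 20.4 CPM) in Ctrl_RT, from 1.22 to 9.91 CPM (median 2.47 CPM) in Ctrl_CE, from 1.11 to 5.62 CPM (median 3.69 CPM) in MetR_RT and from 0.403 to 2.62 CPM (median 0.658 CPM) in MetR_CE. Both groups on the restricted diet lay below every Ctrl_RT library, and Ctrl_CE overlapped it through 1 high library, replicate 7. The log2 fold changes were −3.08 ± 0.56, −3.12 ± 0.56 and −4.97 ± 0.67 (adjusted p = 1.86e-06 for both stimuli), and −2.25, −2.29 and −4.14 without the Ctrl_RT replicate 7 mouse. Oas1a and Oas1g, which share sequence, fell by 2.08 and 2.25 with cold, 1.95 and 2.37 with restriction and 3.13 and 3.74 with both. Oas2 fell from a median of 55.6 CPM to 13.4 CPM, 15.9 CPM and 6.32 CPM. Oasl2, an OAS-like protein that tunes RNA sensing, fell by 2.12, 1.81 and 2.87 on the log2 scale, and its relative Oasl1, which holds back Irf7 translation, by 2.42, 2.65 and 3.37.

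**Figure D3:**
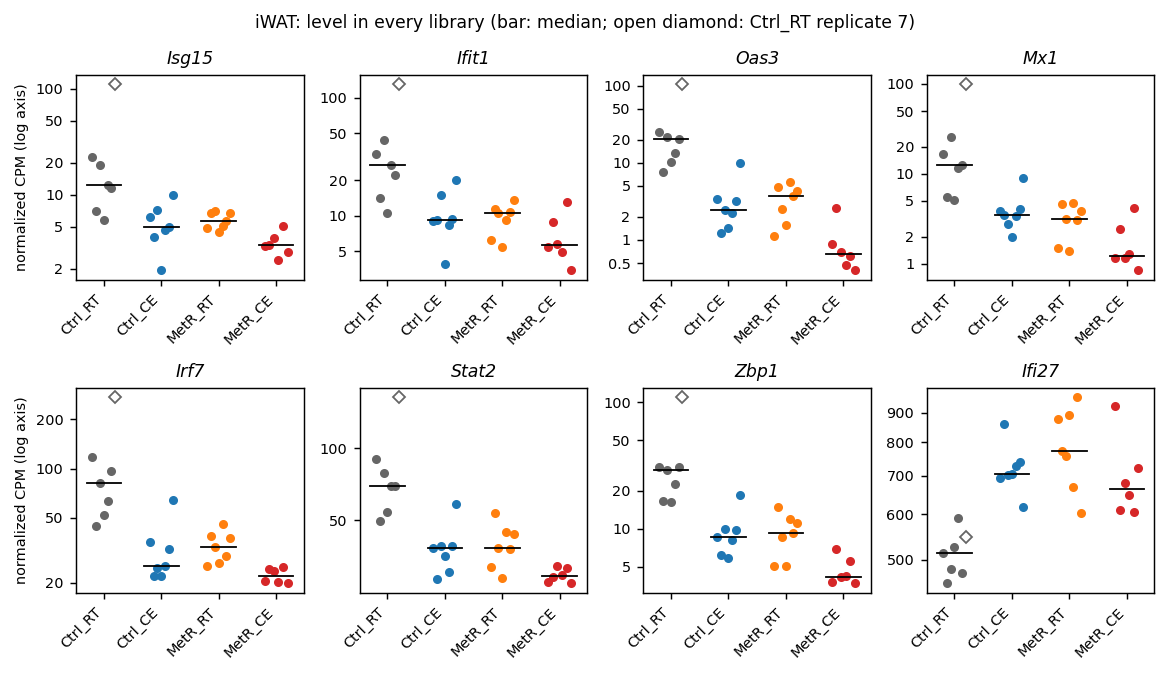
Level of 8 interferon-stimulated genes in every iWAT library, in normalised CPM on a logarithmic axis, with a bar at the group median and an open diamond for Ctrl_RT replicate 7. For Oas3 the group medians are 20.4 CPM in Ctrl_RT, 2.47 CPM in Ctrl_CE, 3.69 CPM in MetR_RT and 0.658 CPM in MetR_CE, and Ifi27 runs the other way.

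Effectors that act on virus entry, replication and release fell too. Mx1, a dynamin-like GTPase against influenza-type viruses that is truncated in most inbred mouse strains, fell by 2.62 ± 0.54, 2.99 ± 0.55 and 3.77 ± 0.61 on the log2 scale, and Mx2, which this annotation lists as a polymorphic pseudogene, by 1.62, 1.5 and 2.55. Rsad2 (viperin), which makes a chain-terminating nucleotide, had medians of 28.5, 20.4, 21.7 and 17.2 CPM in the 4 groups, beside a value of 325 CPM in Ctrl_RT replicate 7. Its log2 fold changes of −1.82, −1.85 and −2.05 shrank to −0.76, −0.78 and −0.98 without that mouse. Bst2 ran from 61.1 to 155 CPM in Ctrl_RT (median 79.8 CPM) and fell to medians of 40.8 CPM, 46.4 CPM and 28.8 CPM, with log2 fold changes of −1.08 ± 0.18, −0.90 ± 0.18 and −1.68 ± 0.20 (adjusted p = 3.8e-07 for both stimuli). Without the mouse they were −0.88, −0.70 and −1.49. Trim30a fell by 1.67, 1.54 and 2.17, and Cmpk2, a mitochondrial nucleotide kinase encoded beside Rsad2, by 1.19, 1.02 and 1.44.

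Sensors among the members gave the same direction. Zbp1 had medians of 29.2 CPM, 8.6 CPM, 9.17 CPM and 4.16 CPM in Ctrl_RT, Ctrl_CE, MetR_RT and MetR_CE, with log2 fold changes of −1.94 ± 0.36, −1.97 ± 0.36 and −2.97 ± 0.40 (adjusted p = 1.79e-06 for both). Dhx58 (LGP2) fell by 1.1, 1.23 and 1.58 and Ifih1 (MDA5), which binds long double-stranded RNA, by 0.78, 0.73 and 0.82.

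6 members stood apart from the rest in iWAT. Ifi27 ran from 455 to 591 CPM (median 514 CPM) in Ctrl_RT, from 617 to 862 CPM (median 706 CPM) in Ctrl_CE, from 602 to 958 CPM (median 773 CPM) in MetR_RT and from 606 to 926 CPM (median 664 CPM) in MetR_CE, so every library of the 3 other groups was above every Ctrl_RT library. It rose with restriction (0.62 ± 0.10, adjusted p = 0.000153), and its values with cold (0.49 ± 0.10, adjusted p = 0.000732) and with both (0.45 ± 0.11, adjusted p = 0.00167) passed the p threshold but not the fold limit. The guanylate-binding proteins, GTPases that attack the membranes of intracellular microbes, differed among themselves: Gbp7 fell by 0.96, 0.60 and 1.05, Gbp2 passed with both stimuli alone (−0.69 ± 0.17, adjusted p = 0.00216) as did Gbp3 (−0.63 ± 0.20, adjusted p = 0.0124), and Gbp4 had log2 fold changes of −0.12, −0.03 and −0.06. Parp9, of the PARP family, and its partner, the ubiquitin ligase Dtx3l, did not pass in any comparison (Parp9 −0.33, −0.38 and −0.13, Dtx3l −0.46, −0.50 and −0.15), while Parp14 beside them on the chromosome fell by 1.41 ± 0.19, 1.1 ± 0.19 and 1.49 ± 0.20.

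Some members did not overlap between groups at all. With cold, 3 members (Oas1a, Ifi35 and Parp14) had every library below every Ctrl_RT library, as 2.37% of all genes did. With restriction there were 10, beside 2.96% of all genes, and with both stimuli 24, beside 9.33%. Ifi27 had every library above Ctrl_RT in all 3, beside 4.23%, 1.8% and 9.25% of all genes.

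Macrophage markers moved with these genes in iWAT. The sum of 9 macrophage markers (Adgre1, Cd68, Csf1r, Mrc1, Cd163, Lyz2, C1qa, C1qb and Mertk) ran from 1820 to 3100 CPM (median 1930 CPM) in Ctrl_RT, from 414 to 2090 CPM (median 846 CPM) in Ctrl_CE, from 358 to 1470 CPM (median 618 CPM) in MetR_RT and up to 670 CPM (median 366 CPM) in MetR_CE, and 8, 8 and 9 of the 9 fell. Among the Ctrl_CE libraries, replicate 7 had the highest level of 31 of the 35 interferon-stimulated genes and the highest macrophage sum, 2090 CPM against 414 to 1210 CPM. In Ctrl_RT, replicate 7 had by far the highest interferon-stimulated sum (3750 CPM) with a macrophage sum of 1900 CPM, within the 1820 to 3100 CPM of the others. Lymph node stroma markers had median sums of 90.7 CPM in Ctrl_RT and 42.2, 37.1 and 28.7 CPM in the other groups, and brown adipocyte markers rose, 4 of 4 in each comparison, from a median sum of 222 CPM to 3090, 1610 and 4560 CPM. Other immune lists differed less between the groups, taken in the order Ctrl_RT, Ctrl_CE, MetR_RT and MetR_CE. Markers of dendritic and plasmacytoid cells had median sums of 36.3, 32.2, 36 and 33.2 CPM. Those of T and NK cells had 7.91, 7.36, 6.6 and 4.8 CPM. B cell markers had 4.29, 2.8, 4.01 and 3.32 CPM, and neutrophil markers 22.7, 14, 19 and 12.5 CPM. Endothelial markers summed to medians of 521, 565, 623 and 655 CPM. The part of these cell types in the interferon-stimulated result was not tested.

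**Figure D4:**
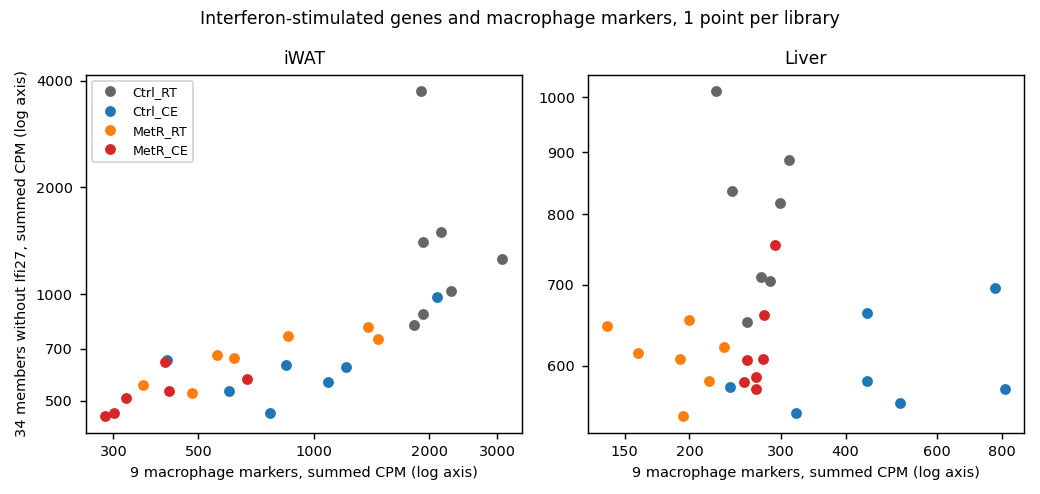
Summed level of 34 interferon-stimulated genes without Ifi27 against the summed level of 9 macrophage markers in every library of iWAT and liver, both in CPM on logarithmic axes. In iWAT the Ctrl_RT libraries lie at the upper right, with replicate 7 at 3750 CPM above the others, while in liver the Ctrl_CE libraries reach the highest macrophage sums, up to 810 CPM, with interferon-stimulated sums below most Ctrl_RT libraries.

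Liver had fewer and smaller differences, again downwards. 17 members fell and Gbp4 rose with cold, where 4.64% of all genes fell and 7.28% rose. 12 fell with restriction (6.91% of all genes were called, 4.02% lower and 2.88% higher) and 19 with both (7.22% lower and 6.25% higher), and no member rose. The median log2 fold changes over the 35 genes were −0.57, −0.52 and −0.64. Without the mouse of Ctrl_RT replicate 7, 11 members fell and 2 rose with cold (11.4% of all genes were called in either direction), 6 fell with restriction (6.78%) and 15 with both (13.3%). No overlap with Ctrl_RT downwards was found for 3 members with cold (Isg15, Ifi35 and Bst2, beside 3.49% of all genes), 4 with restriction (Oasl1, Stat2, Gbp7 and Parp14, beside 2.52%) and 4 with both (Oasl1, Stat2, Ifi35 and Parp14, beside 5.65%).

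Isg15 carried the largest cold difference in liver. It ran from 5.58 to 18.2 CPM (median 11.9 CPM) in Ctrl_RT, from 3.12 to 5.48 CPM (median 4.05 CPM) in Ctrl_CE, from 5.63 to 9.52 CPM (median 7.72 CPM) in MetR_RT and from 2.97 to 10.2 CPM (median 5.28 CPM) in MetR_CE. Every Ctrl_CE library lay below every Ctrl_RT library, and the other groups overlapped it. The log2 fold changes were −1.5 ± 0.21 with cold (adjusted p = 4.16e-06), −0.66 ± 0.21 with restriction (adjusted p = 0.0228) and −1.02 ± 0.21 with both (adjusted p = 0.000358).

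Bst2, the member with the highest level per length in liver, answered to cold more clearly than to diet. Its libraries ran from 119 to 224 CPM (median 167 CPM) in Ctrl_RT, from 91 to 111 CPM (median 97.7 CPM) in Ctrl_CE, from 146 to 168 CPM (median 155 CPM) in MetR_RT and from 100 to 124 CPM (median 114 CPM) in MetR_CE. It fell with cold (−0.80 ± 0.09, adjusted p = 9.95e-08) and with both (−0.64 ± 0.09, adjusted p = 1.62e-06), and its value with restriction alone was −0.17 ± 0.09 (adjusted p = 0.198). Stat2 had the other pattern. It passed with restriction (−0.63 ± 0.09, adjusted p = 1.01e-05), with every MetR_RT library (60.8 to 85.4 CPM) below every Ctrl_RT library (96 to 133 CPM), and stayed under the fold limit with cold (−0.30 ± 0.09, adjusted p = 0.0121) and with both (−0.28 ± 0.09, adjusted p = 0.0176). Irf9 passed with cold alone (−0.59 ± 0.12, adjusted p = 0.000211), and Irf7 with both alone (−0.62 ± 0.17, adjusted p = 0.00656).

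Zbp1 fell by about the same amount in each liver comparison, by 1.24, 1.2 and 1.3 on the log2 scale, from a median of 8.9 CPM to 2.97, 3.87 and 3.77 CPM. Ifit1 fell by 0.87, 0.98 and 0.78. Ifit3 fell with cold (−1.0 ± 0.19) and with both (−0.76 ± 0.19) and its pair Ifit3b likewise (−0.77 and −0.67). Among the OAS genes Oas1g fell in all 3 (by 0.95, 0.75 and 1.40), Oas1a with cold and with both (by 0.89 and 1.11), Oasl1 and Oas3 with restriction and with both, and Oasl2 in none (−0.32, −0.20 and −0.17). Mx2, Cmpk2, Dhx58 and Xaf1 each fell in all 3 comparisons, by between 0.61 and 0.91. Rsad2 passed with cold (−0.72 ± 0.24, adjusted p = 0.022) and missed with restriction and with both (−0.40 and −0.52).

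A few liver genes went the other way or returned to the control level. Gbp4 rose with cold from a median of 2.49 CPM to 4.24 CPM (0.81 ± 0.19, adjusted p = 0.00178), and Gbp2 had a value of 0.55 ± 0.23 that missed the threshold (adjusted p = 0.0675). Usp18 fell with cold (−0.69 ± 0.20, adjusted p = 0.0102) from a median of 14.5 CPM to 9.12 CPM, but had medians of 14.7 CPM in MetR_RT and 17.3 CPM in MetR_CE, and between the cold groups it was higher on the restricted diet (0.88 ± 0.20, adjusted p = 0.00362). Ifi44 did the same (−0.74 ± 0.21 with cold, and 0.73 ± 0.21 between the cold groups). These were the 2 members called between MetR_CE and Ctrl_CE in liver, where 5.26% of all genes were called, 1.17% higher and 4.1% lower.

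Liver macrophage markers were measured beside these genes. Their sum ran from 225 to 311 CPM in Ctrl_RT and from 239 to 810 CPM in Ctrl_CE (median 439 CPM), with 6 of 9 risen, and 5 markers of Kupffer cells, the liver's resident macrophages, had medians of 246 CPM and 353 CPM with 4 of 5 risen. With restriction the medians were 194 CPM and 146 CPM, and 2 macrophage and 3 Kupffer cell markers fell. With both the median log2 fold change over the 9 macrophage markers was −0.11 and the Kupffer cell median sum was 183 CPM, and 2 macrophage markers rose and 2 fell and 1 Kupffer cell marker fell. Endothelial markers had median sums of 66.7, 166, 96 and 159 CPM in Ctrl_RT, Ctrl_CE, MetR_RT and MetR_CE, and 4, 2 and 5 of 5 rose. Hepatocyte markers had median sums of 60000, 54400, 59100 and 45000 CPM, and 2, 0 and 1 of 5 fell. The part of these cells was not tested.

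In brown fat more members were called with cold than with diet, and the 2 stimuli were not tested against each other. Values were below 0 for 30 members with cold and for 33 with restriction, where 43.5% and 44% of all genes lay above 0. With restriction 12 members had an unadjusted p under 0.05 in edgeR, as did 20.9% of all genes. 9 members fell and Dtx3l rose with cold (9.72% of all genes fell and 4.97% rose), 1 fell with restriction (1.97% of all genes fell and 2.5% were called) and 18 fell with both (10.3% lower and 4.36% higher), with median log2 fold changes of −0.44, −0.20 and −0.59. Without the replicate 7 mouse 8 members fell and 1 rose with cold (14.4% of all genes were called in either direction), none was called with restriction (2.52%) and 16 fell with both (14.6%).

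Rsad2 was one of the clearest brown fat genes. It ran from 14 to 35.5 CPM (median 22.4 CPM) in Ctrl_RT, from 8.32 to 16.2 CPM (median 10.5 CPM) in Ctrl_CE, from 17 to 26.3 CPM (median 22.4 CPM) in MetR_RT and from 8.91 to 15.5 CPM (median 10.4 CPM) in MetR_CE. The 2 cold groups lay together at about the same level, and the 2 room temperature groups did so above them with some overlap. Its log2 fold changes were −1.05 ± 0.17 (adjusted p = 1.69e-05), −0.08 ± 0.16 (adjusted p = 0.841) and −1.04 ± 0.17 (adjusted p = 1.19e-05), and between the restricted groups cold gave −0.96 ± 0.16. Gbp3 had the same form (−0.99 ± 0.18, −0.22 ± 0.17 and −1.14 ± 0.17), and its Ctrl_CE libraries (4.81 to 11.6 CPM) lay below all of Ctrl_RT (11.9 to 16.9 CPM). Irf7 fell with cold on the control diet, from a median of 7.02 CPM to 3.88 CPM (−0.94 ± 0.15, adjusted p = 1.65e-05), and its value with both was −0.46 ± 0.15, under the fold limit.

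The sensor Ifih1 fell with cold and with both in brown fat (by 0.72 and 0.68), as did Ifi44, Ifi35, Oas2 and Mx2, and Ifit1 fell with cold alone (−0.78 ± 0.18, adjusted p = 0.000776). With both stimuli the list of genes that fell also held Zbp1 (−1.32 ± 0.48), Isg15 (−0.68 ± 0.17), Ifit3 (−0.59 ± 0.18), Oasl2 (−0.75 ± 0.19), Bst2 (−0.72 ± 0.11), Gbp2 (−0.61 ± 0.19), Mx1 (−1.72 ± 0.45), Oas1a (−0.77 ± 0.24), Oas1g (−1.37 ± 0.48) and Cmpk2 (−0.60 ± 0.11). Stat2 (−0.29, −0.27 and −0.50), Irf9 (−0.26, −0.22 and −0.43) and Usp18 (−0.39, −0.20 and −0.08) passed in none. Oas3 was the gene that fell with restriction (−1.85 ± 0.54, adjusted p = 0.0326) and fell with both (−2.98 ± 0.61), but its levels were very low, with medians of 0.492, 0.246, 0.107 and 0.0411 CPM and no counts in 2 MetR_RT and 3 MetR_CE libraries, so that the fold depends on few reads.

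Dtx3l rose with cold in brown fat, against the direction of the rest. It ran from 12.9 to 18.3 CPM in Ctrl_RT, from 19.5 to 28.1 CPM in Ctrl_CE, from 11.9 to 16.4 CPM in MetR_RT and from 17.1 to 26.8 CPM in MetR_CE, and the Ctrl_CE libraries all lay above the Ctrl_RT libraries. The log2 fold change was 0.65 ± 0.11 with cold (adjusted p = 1.54e-05) and 0.61 ± 0.10 between the restricted groups (adjusted p = 2.47e-05). Ifi27 likewise had all of its Ctrl_CE libraries (1120 to 1340 CPM) above Ctrl_RT (934 to 1110 CPM), with a value of 0.25 ± 0.05 that was under the fold limit. These 2 were the members with no overlap upwards, beside 7.8% of all genes, and 7 had none downwards, beside 7.77%. The macrophage markers of brown fat summed to medians of 111, 102, 70.3 and 56.6 CPM, and 0, 5 and 7 of 9 fell; their part was not tested.

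Few members were called in epididymal fat, whose Ctrl_RT group held 4 mice. 4 members fell with cold (1.44% of all genes fell), none was called with restriction (0.0828% fell and 0.0324% rose) and 2 fell with both (0.695%), with median log2 fold changes of −0.33, −0.12 and −0.21. The call of 0 with restriction came from edgeR, where 5 members had an unadjusted p under 0.05, and DESeq2 also gave 0. Oasl2 had Ctrl_RT levels of 36, 25.7, 12.4 and 25.8 CPM in the 4 mice, against 9.33 to 22.3 CPM in Ctrl_CE, 13.4 to 22 CPM in MetR_RT and 10.8 to 14.7 CPM in MetR_CE. The groups overlapped through the single low Ctrl_RT library, and the gene fell with cold (−0.84 ± 0.23, adjusted p = 0.0384) and with both (−0.92 ± 0.23, adjusted p = 0.0349). Ifit2, Usp18 and Ifi44 were the others that fell with cold (by 0.65, 0.61 and 1.13), and Oasl1 the other with both (by 0.93). Without Ctrl_RT replicate 7 no member was called with cold or with both, and without replicate 1 the numbers were 1 and 0, so these calls hang on single mice of a group of 4. They also depend on which libraries were left out. Over the 34 genes without Ifi27, the left-out Ctrl_RT replicates 2, 4 and 5 summed to 485, 479 and 400 CPM. The kept Ctrl_RT libraries ran from 514 to 749 CPM. With all 110 libraries no member was called with cold.

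Most other members did not pass in epididymal fat. The largest of these values with both stimuli were −1.57 ± 0.49 for Oas1g (adjusted p = 0.0912), −1.23 ± 0.42 for Oas3 (adjusted p = 0.135) and −0.83 ± 0.26 for Oas1a (adjusted p = 0.099). Every library lay below every Ctrl_RT library for Usp18 with cold (as for 2.62% of all genes), for Oas1a with restriction (1.13%) and for Oas1a, Oas1g, Oasl1, Mx2 and Irf9 with both (2.01%). Isg15 had log2 fold changes of −0.37, −0.23 and −0.65, Ifit1 −0.76, −0.31 and −0.71, Ifit3 −0.18, −0.02 and −0.21, and Irf7 −0.33, −0.07 and −0.19. Irf9, Stat2 and Bst2 lay between −0.38 and −0.01, Gbp2 between −0.15 and 0.21 and Rsad2 between −0.31 and 0.19. Zbp1 had values of 0.53, 0.00 and −0.77 against Ctrl_RT and was lower in MetR_CE than in Ctrl_CE (−1.30 ± 0.35, adjusted p = 0.0158), where 1 Ctrl_CE library stood at 16.9 CPM beside a group median of 3.44 CPM. Macrophage markers summed to medians of 740, 672, 566 and 514 CPM and none of the 9 was called.

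**Figure D5:**
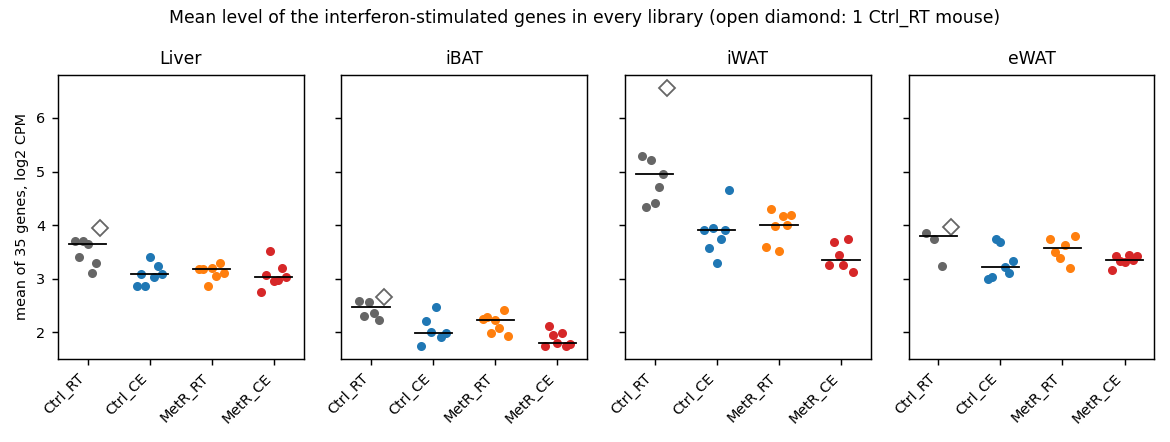
Mean log2 CPM over the 35 interferon-stimulated genes in every kept library, by group and tissue, with a bar at the median. The iWAT library of Ctrl_RT replicate 7 stands at 6.57 and the other 6 of its group between 4.34 and 5.29.

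The tissues differed from each other when the difference itself was tested in 1 fit over all tissues. With both stimuli the change in iWAT was more negative than in liver for 26 members and less so for 1 (13.6% of all genes differed in either direction), more negative than in iBAT for 22 and less so for none (9.92%), and more negative than in eWAT for 29 and less so for 1 (10.9%). For Oas2 the gap was 2.26 ± 0.39 to liver (liver less iWAT, adjusted p = 1.93e-06), 2.07 ± 0.39 to iBAT (iBAT less iWAT, adjusted p = 2.2e-05) and −2.54 ± 0.40 to eWAT (iWAT less eWAT, adjusted p = 4.1e-07), each a deeper fall in iWAT. Taken the same way, Stat2 gave 1.19 ± 0.19, 0.97 ± 0.20 and −1.18 ± 0.21. The member that went less down in iWAT than in liver and eWAT was Ifi27.

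These fits treated the libraries of 1 mouse as independent. With the mouse as a block in limma, 14, 22 and 30 members differed between iWAT and eWAT with cold, restriction and both, 10, 6 and 18 between iBAT and iWAT, and 14, 13 and 25 between liver and iWAT. In the fit without the block, with cold alone the numbers were 18 members deeper in iWAT than in liver and 1 shallower (11.8% of all genes), 17 than in iBAT (8.15%) and 15 than in eWAT (4.18%). With restriction alone they were 17 than in liver and 1 shallower (7.22%), 19 than in iBAT (3.66%) and 23 than in eWAT (3.52%). Between liver and iBAT 5, 0 and 3 members differed with cold, restriction and both, beside 9.31%, 2.36% and 8.65% of all genes. Between liver and eWAT 3, 0 and 1 differed (6.44%, 2.08% and 5.82%), and between iBAT and eWAT 2, 0 and 2 (4.5%, 0.121% and 5.53%). Without the mouse of Ctrl_RT replicate 7, 6 members were deeper in iWAT than in eWAT with cold (850 of all 31963 genes differed), 6 with restriction (758) and 24 with both (3114). Against iBAT 9 were deeper and 1 shallower with cold (2388), 7 deeper with restriction (961) and 17 with both (3025). Against liver 14 were deeper and 1 shallower with cold (3516), 11 and 1 with restriction (2150), and 24 deeper with both (4217).

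For a few members the change with both stimuli departed from the sum of the single changes. The interaction is the change with both less that sum on the log2 scale. A positive value means a higher level with both than the sum gives, which need not be a smaller fall. In liver it passed for Isg15 (1.14 ± 0.30, adjusted p = 0.0452), Stat2 (0.65 ± 0.13, adjusted p = 0.00908), Ifi27 (0.84 ± 0.22, adjusted p = 0.0412) and Dtx3l (0.59 ± 0.11, adjusted p = 0.00699), all positive, where 0.375% of all genes had a positive and 0.682% a negative call. Leaving out single libraries gave between 1 and 8 members. In iWAT it passed for Parp14 (1.02 ± 0.27, adjusted p = 0.0374) and Dtx3l (0.81 ± 0.21, adjusted p = 0.0328), and with the other sign for Ifi27 (−0.67 ± 0.15, adjusted p = 0.02), where 1.65% of all genes were called, 0.511% positive and 1.14% negative. Leaving out single iWAT libraries gave between 1 and 6 members. The adjusted p of Dtx3l was then as high as 0.0735, without MetR_CE replicate 5. Although 33 of the 35 iWAT values were positive, with a median of 0.81, their errors were wide, as for Isg15 (1.56 ± 0.68, adjusted p = 0.207) and Oas3 (1.22 ± 0.82, adjusted p = 0.463). That median leaned on the Ctrl_RT replicate 7 mouse too, and without it was 0.41.

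Dtx3l had a positive interaction that passed in 3 of the 4 tissues, in none of them under every setting. In liver its medians were 54.1 CPM in Ctrl_RT, 63.4 CPM in Ctrl_CE, 37.1 CPM in MetR_RT and 67.1 CPM in MetR_CE, in iWAT 53.7, 41.9, 39.4 and 49.4 CPM and in eWAT 49, 39.5, 42.5 and 52.1 CPM. In each of the 3 tissues the MetR_CE median lay above that of MetR_RT, and the test of that step passed in liver alone (0.80 ± 0.08, adjusted p = 6.17e-08). In eWAT the interaction was 0.64 ± 0.13 (adjusted p = 0.0125), beside Ifit2 (0.75 ± 0.20, adjusted p = 0.0375), where 1.1% of all genes had a positive call. Leaving out single eWAT libraries gave between 0 and 3 members, and with all 110 libraries none was called and Dtx3l stood at 0.44 (adjusted p = 0.333). In brown fat none of the 35 passed (edgeR, with 6 at an unadjusted p under 0.05, and 1 called by DESeq2), where 0.372% of all genes did, 0.247% upwards and 0.125% downwards.

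Adding the second stimulus to the first gave few further calls. On the restricted diet, cold went with a further fall of Oas2 (−1.35 ± 0.33, adjusted p = 0.0157) and Bst2 (−0.79 ± 0.19, adjusted p = 0.017) in iWAT, where 1.28% of all genes fell, with a fall of Rsad2, Mx2 and Gbp3 and a rise of Dtx3l in brown fat (5.13% of all genes fell and 3.41% rose, 8.53% in all), with the rise of Dtx3l in liver (2.75%, beside 2.44% lower and 5.18% in all) and with no call in eWAT (0.112% of all genes in either direction, and 10 members at an unadjusted p under 0.05). In the cold, restriction went with no call in iWAT or brown fat (2.27% and 1.64% of all genes, 1.16% downwards in brown fat, and 11 and 10 members at an unadjusted p under 0.05 in edgeR, with 6 and 3 called by DESeq2) and with 2 calls in eWAT, Ifit2 (0.60 ± 0.13) and Zbp1 (4.35%). Without the Ctrl_RT replicate 7 mouse the iWAT numbers were 8 with cold on the restricted diet and 6 with diet in the cold, all downwards, beside 1.97% and 2.44% of all genes called.

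The interferons themselves were close to the limit of detection. Of 12 interferon genes only Ifng, the type II interferon, had enough counts to be tested, in iWAT and eWAT, and edgeR called it in no comparison. It had 50 counts over 18 of 27 iWAT libraries. Ifnb1, the type I interferon made first by most cells, had 4 counts in the iWAT library of Ctrl_RT replicate 7 and none in the other 109 libraries. A count of 0 at this depth does not show that a gene was silent. Of the type I receptor genes none passed: Ifnar1 had log2 fold changes of −0.31, −0.34 and −0.38 in iWAT and between −0.30 and 0.20 in the other tissues, and Ifnar2 lay between −0.32 and 0.16 in all 4.

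Other genes of the pathway, from lists that do not overlap with the 35, fell in iWAT in large part. Of 36 further interferon-induced genes 26, 25 and 27 fell with cold, restriction and both, and none rose. Ms4a4c, a membrane protein, fell by 3.70, 4.31 and 5.84 on the log2 scale. Of 25 genes of the type II response and of antigen processing 13, 8 and 18 fell, among them the chemokine Cxcl10 (by 3.67, 3.78 and 4.07) and the GTPase Ifi47 (by 1.41, 1.47 and 2.05), which is on both lists. Of 18 nucleic acid sensors and their adaptors 12 fell in each comparison, among them Cgas (by 1.25, 1.38 and 2.11), Tlr7 (by 1.1, 1.34 and 2.41) and Tlr9 (by 1.31, 1.60 and 2.67), while the mitochondrial adaptor Mavs rose (0.91, 0.62 and 1.03). Of 20 receptors and signal transducers 6, 5 and 7 fell, with Irf5 (by 1.36, 1.68 and 2.42) and the feedback inhibitor Socs3 (by 1.5, 1.26 and 2.15) among them. Irf1 passed with cold alone (−0.60 ± 0.10, adjusted p = 7.17e-05).

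The difference of these lists between tissues was not tested. In liver 6, 6 and 7 of the 36 further genes fell and 3, 1 and 1 rose, with Ly6e, a surface protein anchored by a lipid, down by 0.96, 1.2 and 1.8, and Ifi47 down by 1.21, 1.07 and 1.60. Of the type II genes 4, 4 and 12 fell in liver and 3 rose with cold, and of the sensors 0, 1 and 1 fell and 2 rose with cold. Gbp5 rose with cold in liver (1.44 ± 0.44, adjusted p = 0.0135), as Gbp4 did. In brown fat 10, 0 and 13 of the 36 fell, with Parp10 down by 1.35 with cold and 1.41 with both, and 7, 0 and 15 of the type II genes fell, with the GTPase Igtp down by 1.03 with cold and 1.55 with both. Of the sensors 1, 0 and 7 fell in brown fat and 2, 0 and 1 rose. Irf1 passed in brown fat with both (−0.86 ± 0.12). In eWAT 1, 0 and 2 of the 36, 0, 0 and 1 of the type II genes and none of the sensors fell.

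Members with and without a match to the spaced GAAA pair in their window both fell, and the difference was not tested. The search took this exact spacing alone, so a window without a match can still hold a response element. With both stimuli in iWAT, 15 of the 15 members with the spaced GAAA pair fell, with a median log2 fold change of −2.05, as did 9 of the 10 with a window but no match (median −1.65) and 7 of the 10 without a window (median −1.77). Irf7, whose window held no match, fell by 2.23, and Gbp3, with 2 matches in 1 of its windows, by 0.63.

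Libraries of the same mouse were compared across tissues, since the labels give the mouse of each library. For the 4 single genes Ifit1, Isg15, Usp18 and Irf7, deviations from the group mean were correlated between each pair of tissues, 24 relations in all, with 100000 permutations of mice within groups. 2 passed by Pearson's r after Benjamini-Hochberg adjustment: Irf7 in liver and iBAT (r = 0.583 over 26 mice, permutation adjusted p = 0.048, rho = 0.532 with permutation adjusted p = 0.0982, r = 0.512 without the 2 farthest mice) and Ifit1 in liver and eWAT (r = 0.582 over 24 mice, permutation adjusted p = 0.048, rho = 0.528, r = 0.543 without the 2 farthest). None passed by Spearman's rho, and none passed by r without the mouse of Ctrl_RT replicate 7 (r = 0.53 and 0.555, permutation adjusted p = 0.112 for both). As a description, the median r over the 35 members was 0.339 between liver and iBAT, 0.327 between liver and eWAT, 0.358 between iBAT and eWAT, 0.227 between liver and iWAT, 0.122 between iWAT and eWAT and 0.0606 between iBAT and iWAT, beside all-gene medians of 0.0428 to 0.094. Without the mouse of Ctrl_RT replicate 7 they were, in the same order, 0.327, 0.24, 0.327, 0.0879, 0.0281 and −0.0435, beside all-gene medians of 0.0401 to 0.09. The members share their mice and each pair of libraries, so these values are not independent of each other.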

How the data were processed

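RNA was sequenced from 4 tissues of 28 mice, with poly(A) selection, a kit that does not mark strand and paired reads of 50 bases. The authors deposited raw counts of reads per gene in 3 tables. The submitters' notes name STAR 2.7.9a, featureCounts 2.0.3, Salmon 1.9.0 and DESeq2 1.46.0 and the mouse build mm10. The study's methods name featureCounts for counts per gene and, in parallel, Salmon with its estimates summed to genes. The tables' names point to Salmon, and the values are whole numbers. Which tool made the tables is otherwise not given in the sources used here. Groups came from the sample titles, and the treatment tag of 3 iBAT libraries differs from its title. 51948 of 56884 gene IDs were named with GENCODE vM21, while the study's methods give vM25.

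The 5 libraries left out were iBAT Ctrl_CE replicate 5, eWAT Ctrl_RT replicates 2, 4 and 5 and eWAT MetR_RT replicate 7. Their absence best matched each gene's mean over the libraries of the tissue in the study's source data. The search covered the subsets with the numbers per group that the study reports leaving out, and the full set. These were 8 for iBAT and 246 for eWAT. No column of the tables was unused.

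In each tissue, genes with at least 10 counts in total (22143 for liver, 23915 for iBAT, 26428 for iWAT, 27786 for eWAT) were fitted over the 4 groups with edgeR 4.0.16 (R 4.3.3, TMM, quasi-likelihood test, prior count 2) and adjusted by Benjamini-Hochberg over all of them. Tissue differences came from 1 edgeR fit over all tissues, with limma 3.58.1 (voom, mouse as block) as an alternative, since libraries of 1 mouse are not independent. The edgeR test against Ctrl_RT within a tissue was first tried on simulated data. Other alternatives were DESeq2 1.42.0 without and with apeglm 1.24.0, other filters and scaling, and leaving out each library. Alternatives without the mouse of Ctrl_RT replicate 7 were chosen after seeing the data. The members, gene lists and tests were chosen with earlier results of these data known.

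Named in each comparison were the members called, at most 12 by size, and in every tissue Ifit1, Ifit3, Isg15, Usp18, Rsad2, Oasl2, Irf7, Irf9, Stat2, Bst2, Gbp2 and Zbp1, with the near-identical pairs together. Of the other lists, counts and at most 4 genes per list and tissue were given, with Irf1, Ifnar1, Ifnar2 and Ifnb1 always. A result for 1 further gene is not reported here. Promoters were read from RefSeq (GRCm38.p6). Correlations used 100000 permutations.

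Replicates were separate mice. Replicate numbers do not pair the mice of different groups: the correlation of same-numbered libraries' deviations had medians of −0.00624 (liver), 0.023 (iBAT), 0.0192 (iWAT) and 0.0553 (eWAT).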

Additional observations from a re-analysis of the deposited data

Results flagged for a closer look

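80 groups of 4 to 7 libraries were examined for a library far from the others, and 3 stood out, where chance alone gives about 1 in 20. The mean over the 35 genes was 6.57 log2 CPM in iWAT Ctrl_RT replicate 7, against 4.34 to 5.29 in the other libraries of its group (gap over range 0.573). Usp18 was 6.12 log2 CPM in the same library, against 3.63 to 4.57 (gap over range 0.625). Irf7 was lowest in liver MetR_RT replicate 3, at 4.0 log2 CPM against 4.86 to 5.05 (gap over range 0.818).

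By the test of the difference itself, the change against Ctrl_RT differed between tissues for at least 1 member in 15 of 18 pairs of tissues and comparisons. Many members differed only in the pairs that involve iWAT. In the other pairs the few that differed are near what the share of all genes gives, and are not a result about the members. Between liver and iWAT 19 members differed with cold, 18 with restriction and 27 with both, beside 11.8%, 7.22% and 13.6% of all genes. Between iBAT and iWAT 17, 19 and 22 differed (8.15%, 3.66% and 9.92%), and between iWAT and eWAT 15, 23 and 30 (4.18%, 3.52% and 10.9%). Between liver and iBAT 5 differed with cold (Ifi27, Ifih1, Dhx58, Gbp2 and Gbp3, beside 9.31% of all genes) and 3 with both (Ifih1, Dhx58 and Gbp3, 8.65%). Between liver and eWAT 3 differed with cold (Ifi27, Gbp4 and Zbp1, 6.44%) and 1 with both (Xaf1, 5.82%). Between iBAT and eWAT 2 differed with cold (Gbp3 and Dtx3l, 4.5%) and 2 with both (Ifih1 and Gbp3, 5.53%).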

How the results depend on the processing

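No member changed direction under any alternative in a comparison where the reported fit had called it. Values not called in the reported fit were not part of this check. Of the called results for single genes, over all alternatives, 6717 kept their side of the threshold and 348 did not, all in the same direction. The 6717 include 194 from the setting by adjusted p alone, which keeps every call by its rule. They also include refits without a library outside the groups compared, so the total is not a measure of robustness. The limits lie in the 4 Ctrl_RT libraries of eWAT, in the iWAT library of Ctrl_RT replicate 7, and in low counts of Oas3, Oas1g, Mx1 and Zbp1 in iBAT. Counts below are of the 35 members called, with the reported number in brackets; the cause of each shift was not tested beyond what the change of setting itself does.

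By adjusted p alone, with no limit on the fold, the counts were 19 (12) with restriction and 7 (1) between MetR_CE and MetR_RT in liver, 19 (10) with cold, 3 (1) with restriction, 28 (18) with both and 10 (4) between MetR_CE and MetR_RT in iBAT, and 7 (4) with cold, 4 (2) with both and 4 (2) between MetR_CE and Ctrl_CE in eWAT. DESeq2 gave 9 (4) for the liver interaction, 1 (0) for the iBAT interaction, 3 (0) between the cold groups of iBAT, 9 (2) between MetR_CE and MetR_RT and 6 (0) between the cold groups of iWAT, and 7 (4) with cold and 5 (2) with both in eWAT. With apeglm they were 7 (4) and 1 (0) for the liver and iBAT interactions, 1 (3) for the iWAT interaction, 1 (2) between MetR_CE and MetR_RT in iWAT, and in eWAT 4 (2) with both, 1 (2) for the interaction and 1 (2) between the cold groups. A stricter filter gave 0 (1) with restriction in iBAT, 5 (2) between MetR_CE and MetR_RT in iWAT and 2 (0) between its cold groups, and no filter gave 2 (4) with cold and 1 (2) for the interaction in eWAT. DESeq2's size factors gave 1 (0) between the cold groups of iWAT and 1 (2) in eWAT. Fitting only the 2 groups compared gave 11 (2) and 4 (0) for those steps of iWAT, and 1 (4) with cold and 4 (2) with both in eWAT. With all 110 libraries the counts were 1 (0) between the cold groups of iBAT, and 0 (4) with cold and 0 (2) for the interaction in eWAT. Grouping by the tag gave 2 (4) between MetR_CE and MetR_RT in iBAT, and summing the near-identical pairs 2 (1) with restriction in iBAT. By single genes, 23 called iBAT results kept their call when grouped by the tag and 10 did not. Without the 3 libraries whose tag differs, 27 kept it and 6 did not.

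With the replicate number as a block, which does not pair these mice, the counts were 2 (4) for the liver interaction, 0 (1) with restriction and 1 (0) between the cold groups in iBAT, 9 (3) for the interaction and 4 (2) between MetR_CE and MetR_RT in iWAT, and 1 (4) with cold, 1 (2) with both, 1 (2) for the interaction and 1 (2) between the cold groups in eWAT. The block left every other count within 1.5 times.

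Leaving out 1 library at a time gave, for cold, restriction, both, interaction, cold on the restricted diet and diet in the cold, in this order, 13 to 20, 6 to 15, 15 to 20, 1 to 8, 1 to 1 and 1 to 3 in liver, 7 to 13, 0 to 2, 13 to 18, 0 to 1, 3 to 7 and 0 to 1 in iBAT, 24 to 30, 22 to 30, 29 to 31, 1 to 6, 1 to 8 and 0 to 6 in iWAT, and 0 to 6, 0 to 0, 0 to 3, 0 to 3, 0 to 0 and 1 to 2 in eWAT. Without Ctrl_RT replicate 7 the count fell to 6 with restriction in liver and to 0 with cold in eWAT, and rose to 8 between MetR_CE and MetR_RT in iWAT.

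Of the tissue differences, without the Ctrl_RT replicate 7 mouse 10 (17) members with cold and 7 (19) with restriction differed between iBAT and iWAT, 6 (15) and 6 (23) between iWAT and eWAT, 1 (0) with restriction between liver and iBAT and 0 (1) with both between liver and eWAT. With the mouse as a block in limma they were 10 (17) and 6 (19) between iBAT and iWAT and 0 (1) with both between liver and eWAT. Of the correlations across tissues 0 (2) passed without that mouse.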
